A study of Drosophila melanogaster with 16 samples.

Results

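The peroxiredoxin gene Prx5 was followed through 8 array probes that carry the transcript number FBtr0100619, 1 of 16637 transcripts and 8 of 132999 gene probes measured in the cardiac tube of Drosophila melanogaster. The gene was chosen because the study lists it among genes repressed with age, so its difference between ages is described below without a test. The transcript number was tied to Prx5 by value. Of all transcripts, only FBtr0100619 gave the mean level and the ratio of that entry within the tolerances of 0.0005% for the level and 0.001% for the ratio. It did so through 3 of its 8 probes, those at positions 206, 420 and 486, where a position is the number that the files give to the place of a probe on the transcript. The gene was thus chosen by the intensities of these 3 probes and their ratio between ages, and the other 5 lie at positions 5, 70, 86, 281 and 353.

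Cardiac tubes were dissected by hand from males of the w1118 background, a Canton S isogenic line, kept at 25 °C and 60% humidity in batches of 30 flies. Flies aged 10 days were set against flies aged 40 days, with 4 samples per age (letters A to D) and 10 tubes pooled in each. No other treatment or allele separated the ages. Amplified RNA of every sample was labelled in both dyes, Cy3 and Cy5, which gave 16 channels on 8 arrays that each held both ages.

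Peroxiredoxins are thiol peroxidases, which reduce hydrogen peroxide, organic hydroperoxides and peroxynitrite at a reactive cysteine. Thioredoxin then returns the oxidised enzyme to its reduced form. Prx5 belongs to the atypical class, whose members in animals are found in mitochondria, in the cytosol and in other compartments, and peroxide removal has long been of interest in the heart because beating muscle is rich in mitochondria. In RefSeq (Release 6 plus ISO1 MT) Prx5 is CG7217 on chromosome arm 3R, and its span is the same as that of CG7215. Both carry the older name CG32920, so a signal from the overlapping gene could not be separated from that of Prx5. The study also designed a primer pair for Prx5 for quantitative PCR. By that method the authors report lower Prx5 expression in old hearts than in young ones. They also report lower Prx5 expression in flies that overexpressed the transcription factor gene vri. The primer pair is shown here because it ties the gene name to a stretch of its sequence (20 bases each, 5′ to 3′, no base marked).
Prx5 forward: acgatccctttgtgatgtcc
Prx5 reverse: gacattcagctcggtcacct

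The authors' value table and the labels of the scanner files did not give the same samples the same letters. Of its 16 columns, 8 followed the scanner channel labelled for that sample (r of at least 0.992 for the channel followed, against at most 0.941 for the next best), and 8 followed another channel of the same age and dye. No column changed age. Under the value table each 40-day sample lay on arrays of 2 different letters, so that the ratios by letter shared 40-day extracts and were not independent. Under the value table the Cy3 and Cy5 channels of each 40-day sample deviated from the age mean together over 2045 bright transcripts (r from 0.866 to 0.966), whereas under the scanner labels r ran from -0.476 to 0.69. Bright transcripts are those above the 95th percentile of the random control probes in all 16 columns. At 10 days r ran from 0.908 to 0.958 under either, so it did not settle which young sample is B and which is C. By the scanner labels Prx5 at 10 days was highest in sample B (4304) and lowest in C (2330). Because of the 40-day samples, values per sample are from the value table, and values per array are from the scanner files.

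Prx5 gave one of the brightest signals on the arrays. Ordered by intensity within a scanner channel, it ranked between 137 and 416 of 16637 transcripts, in the top 0.823% to 2.5%, with a median of 1.35%. Its 10-day channels ranked from 137 to 248 and its 40-day channels from 194 to 416, so the ranks of the ages overlapped. All 8 probes exceeded the 95th percentile of the random control probes in each of the 16 channels, and the transcript stood above that level by 7.95-fold to 47.3-fold. Intensity depends on the sequence of a probe, and a rank is no measure of molar abundance.

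**Figure D1:**
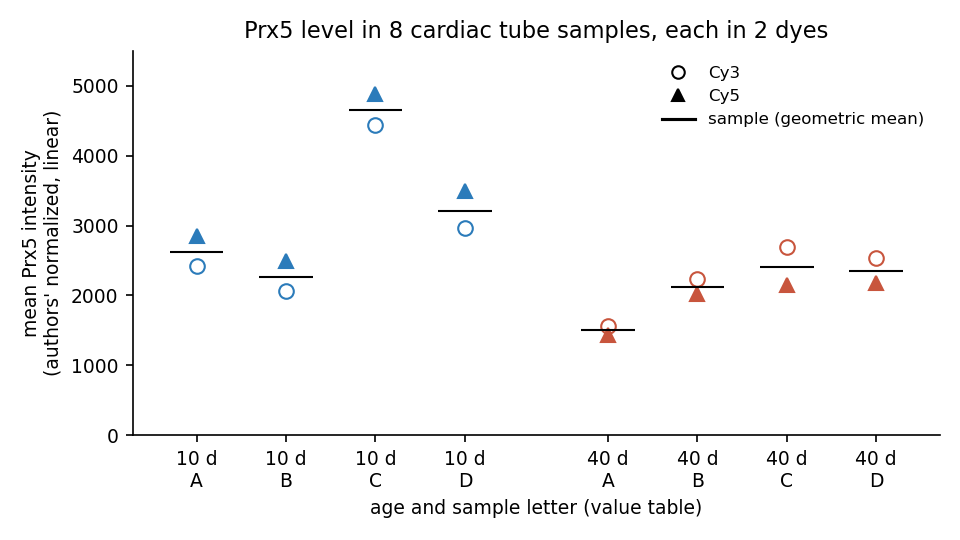
Prx5 intensity (value table, mean of the 8 probes on the log2 scale, shown in linear units) for the 4 samples of each age, with the Cy3 and Cy5 channels shown apart and the sample mean marked. The 10-day samples lie between 2266 and 4649 and the 40-day samples between 1502 and 2410, so the ages overlap.

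At 10 days the Prx5 intensity was 2626 in sample A, 2266 in B, 4649 in C and 3215 in D. At 40 days it was 1502 in sample A, 2125 in B, 2410 in C and 2351 in D. Sample C stood highest at 10 days and sample A lowest at 40 days, and 2 of the 4 old samples fell below the lowest young one. The mean log2 intensity was 11.58 ± 0.45 (SD, n = 4) at 10 days and 11.01 ± 0.31 (SD, n = 4) at 40 days, a difference of -0.57 (SE 0.27) or 0.672-fold. For comparison, every 40-day sample was below every 10-day sample in 2.24% of all transcripts and in 3.33% of the bright ones, and Prx5 was not among them. In dissected tubes, fewer cells that express the gene and less RNA per cell cannot be told apart.

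The samples of 1 age differed from each other by more than the error left after dye was fitted. This is not the comparison of ages that chose the gene. The study's call by limma also weighs spread within an age, however, and it rested on 3 of these 8 probes, so the choice was not free of it. Among 10-day samples limma's F was 19.8 (adjusted p = 5.5e-05 over all transcripts), and among 40-day samples it was 8.3 (adjusted p = 0.0024). Such differences were common on these arrays. At an adjusted p under 0.01, 25.9% of all transcripts and 68.9% of the bright ones were called at 10 days, and 22.8% and 66.4% at 40 days. The SD of Prx5 among 10-day samples (0.449 on the log2 scale) was larger than that of 60.7% of bright transcripts, whose median was 0.378. Among 40-day samples its SD (0.315) was larger than that of 38.4%, with a median of 0.384. Without sample C of 10 days the adjusted p became 0.042, and without sample A of 40 days it became 0.64. With the scanner labels in place of the value table the 40-day call was also lost (adjusted p = 0.99). Both channels of a sample come from 1 pooled extract, so these p-values set the spread between samples against labelling and array error.

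**Figure D2:**
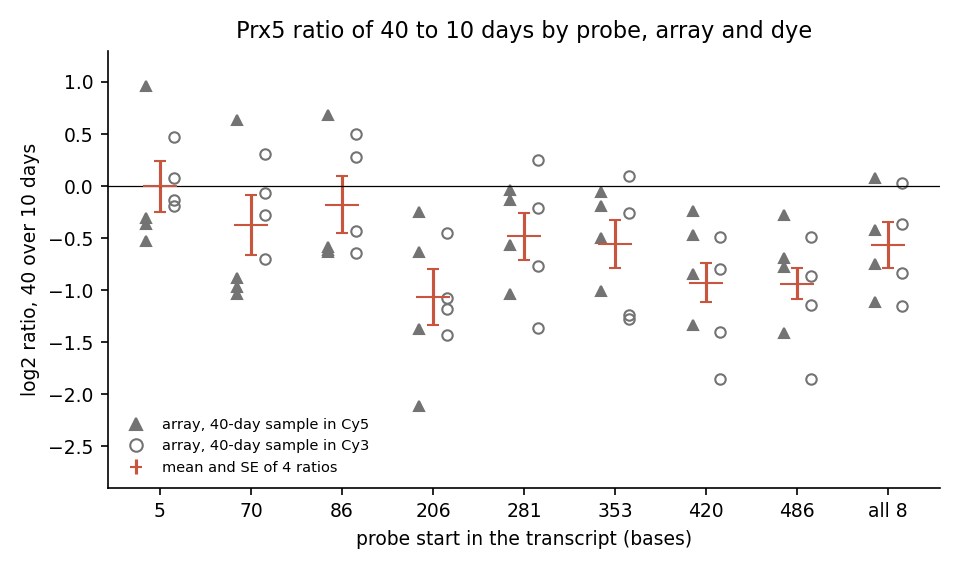
Log2 ratio of 40 over 10 days (scanner files) for each Prx5 probe by position and for the mean of all 8, with 1 point per array, triangles where the 40-day sample was in Cy5 and circles where it was in Cy3, and the mean and SE of the 4 ratios by letter in red. Over all 8 probes the arrays run from -1.16 to 0.08 with a mean of -0.57, and by probe the means run from -1.06 at position 206 to -0.0023 at position 5.

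Within arrays, the log2 ratio of 40 over 10 days for Prx5 was -0.75 and -0.37 on the arrays labelled A, -1.12 and -0.83 on those labelled B, 0.08 and 0.03 on those labelled C, and -0.42 and -1.16 on those labelled D. The ratio was below 0 on 6 of 8 arrays, while 24% of all transcripts and 35.4% of the bright ones were below 0 on at least 6. By the letters of the value table the pair of arrays near 0 held sample B of 10 days, the lowest of the young samples, and the arrays at -1.12 and -0.83 held sample C of 10 days, the highest. The 4 means by letter were -0.56, -0.98, 0.05 and -0.79, which averaged -0.57 (SE 0.22, n = 4) or 0.675-fold. This SE takes the 4 as independent and may be too small, since under the value table they share 40-day extracts. With the 40-day sample in Cy5 the mean ratio was -0.55, and with it in Cy3 it was -0.58. Single probes differed more, and in opposite directions. The ratio was lower with the 40-day sample in Cy5 at positions 5, 70, 86 and 206, for example -0.56 against -0.19 at position 70. It was lower with that sample in Cy3 at positions 281, 353, 420 and 486, for example -1.09 against -0.79 at position 486. A lower ratio than that of Prx5 was found in 5.36% of all transcripts (median 0.0069) and in 13.9% of the bright ones (median -0.04). By limma at an adjusted p under 0.01, 0.0421% of all transcripts were called lower and 0.144% higher at 40 days, 31 transcripts in all.

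**Figure D3:**
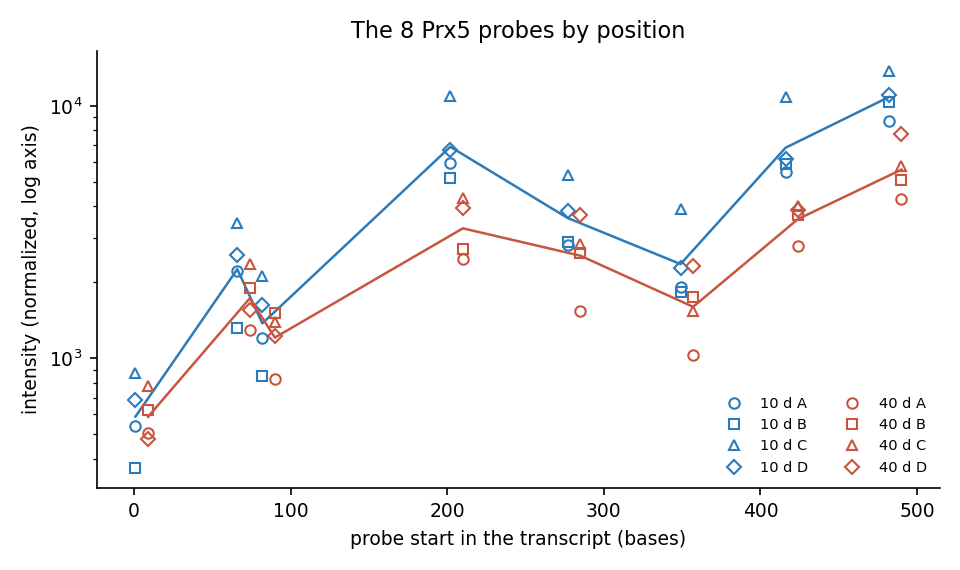
Intensity of each of the 8 Prx5 probes (log axis) in the 4 samples of each age, by position on the transcript, with lines through the mean of the log2 values and the ages set slightly apart on the x axis. Samples of the ages overlap at positions 5, 70, 86, 281 and 353 and are apart at positions 206, 420 and 486, the probes whose values had chosen the gene.

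The 8 probes of Prx5 did not give the same ratio. At position 206 the intensities were 5966, 5176, 10930 and 6671 in samples A to D of 10 days and 2479, 2712, 4317 and 3934 in those of 40 days. At position 420 they were 5493, 5894, 10810 and 6191 at 10 days and 2792, 3688, 4028 and 3864 at 40 days. At position 486, the last probe and the brightest, they were 8755, 10360, 13800 and 11020 at 10 days and 4295, 5078, 5793 and 7767 at 40 days. At these 3 probes every old sample lay below every young one, a pattern that the choice of the gene had used. It was found at 1.87% of all probes and at 3.65% of the 17023 bright ones. Their mean log2 ratios within arrays were -1.06 (SE 0.27), -0.93 (SE 0.19) and -0.94 (SE 0.15), each below 0 on all 8 arrays, as were 2.19% of all probes and 4.91% of the bright ones.

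The other 5 probes overlapped between ages. At position 281 the intensities were 2813, 2899, 5321 and 3847 in samples A to D of 10 days and 1547, 2607, 2842 and 3701 in those of 40 days. At position 353 they were 1916, 1828, 3904 and 2282 at 10 days and 1036, 1755, 1542 and 2333 at 40 days. In the latter sample D of 40 days exceeded 3 of the 4 young samples. The mean log2 ratios at these positions were -0.48 (SE 0.225) and -0.55 (SE 0.23), below 0 on 7 of 8 arrays each, while 8.97% of all probes and 16.9% of the bright ones were below 0 on at least 7. Nearer the low end of the position scale the ratios were smaller in size, with -0.375 (SE 0.29) at position 70 and -0.18 (SE 0.27) at position 86.

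The probe at position 5 was the dimmest and its ratio was nearest to 0. Its intensity was 542.6, 368.4, 879.5 and 682 in samples A to D of 10 days and 508.5, 622.8, 780.6 and 480.9 in those of 40 days. The mean log2 ratio was -0.0023 (SE 0.24), below 0 on 5 of 8 arrays, while 39.9% of all probes and 44.3% of the bright ones were below 0 on at least 5. The rank correlation of the probe ratios with position was -0.738 over 8 probes, which share the same extracts and overlap in what they measure. Probe level rose with position too (rank correlation 0.786), so position and level cannot be told apart in these ratios. The ratios of the 8 Prx5 probes had an SD of 0.383 and a range of 1.06. Over 2041 bright transcripts with 8 probes the median correlation was 0.286, the median SD 0.161 and the median range 0.462. The 3 lowest ratios of Prx5 are those of the probes that chose the gene, so all 3 measures carry the choice with them and are given as a description.

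**Figure D4:**
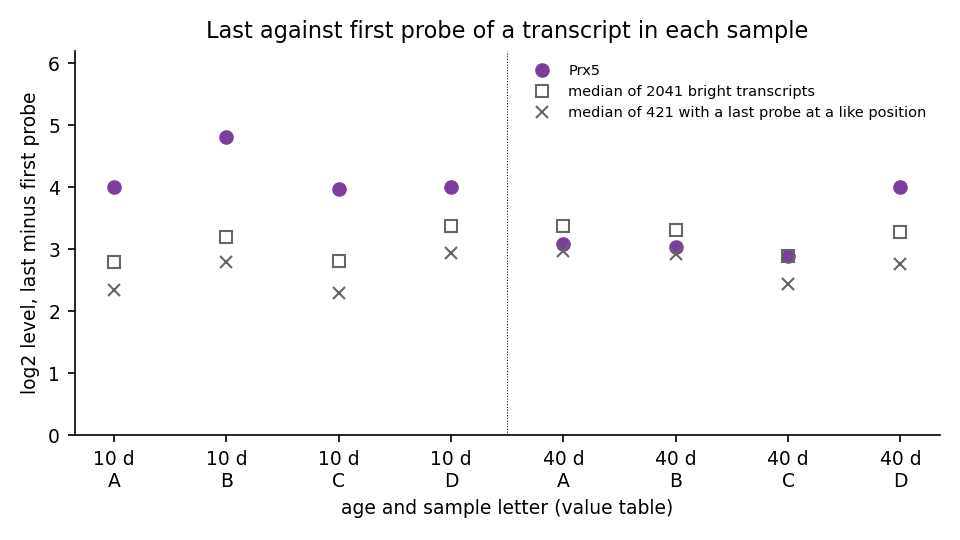
Difference in log2 intensity between the last probe (position 486) and the first (position 5) of Prx5 in each sample, with the median over 2041 bright transcripts with 8 probes (squares) and over 421 of them whose last probe lies at a similar position (crosses). At 10 days Prx5 lies between 3.97 and 4.81, and at 40 days 3 samples lie between 2.89 and 3.08 and sample D at 4.01.

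The gap between the last and the first Prx5 probe was smaller in 3 of the 4 old samples than in any young one. In samples A to D of 10 days the last probe exceeded the first by 4.01, 4.81, 3.97 and 4.01 on the log2 scale, and at 40 days by 3.08, 3.03, 2.89 and 4.01. Sample D of 40 days lay within the young range, and the other 3 old samples lay below it. The mean change was -0.95, whereas the median over the 2041 transcripts was 0.09 and 1.62% of them had a lower change. Among 421 of these transcripts whose last probe lay at a similar position the median change was 0.11, and 0.95% were lower. Since the last probe helped to choose the gene and the first did not, this change carries the choice with it and is given as a description. The median gap of the bright transcripts in the same samples, a measure that also varies with the quality of the RNA, ran from 2.8 to 3.38 at 10 days and from 2.89 to 3.38 at 40 days. Its part in the Prx5 values was not tested.

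In level, the probes of Prx5 followed the order common on these arrays. Probe level and position had a rank correlation of 0.786, against a median of 0.833 over the 2041 transcripts, and the range of 3.73 on the log2 scale was close to their median of 3.68. Across the 8 samples the 28 pairs of Prx5 probes correlated with r between 0.146 and 0.97 (median 0.772), and the probes at positions 206, 420 and 486 correlated with each other at 0.934 to 0.965. With the age means removed r ran from 0.284 to 0.972, with a median of 0.794. These correlations rest on 8 samples that all probes share. The order of the samples was not the same at all probes. At 10 days sample C was highest at each of the 8 probes, whereas at 40 days sample D was lowest at position 5 and highest at positions 281, 353 and 486.

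The dyes had no difference in Prx5 level beyond error when averaged over the 8 samples. The mean log2 difference of Cy5 over Cy3 was 0.01 (SE 0.135, limma adjusted p = 1), with Cy5 higher in 4 of 8 samples. By limma no transcript passed an adjusted p under 0.01 in this comparison (0% called, and 16 transcripts at an unadjusted p under 0.05), in a fit whose residual held the shift between ages given next. Within 10-day samples alone 2672 transcripts were called, and within 40-day samples alone 3402. By age the dyes parted. Samples A to D of 10 days had Cy5 over Cy3 at 0.24, 0.27, 0.14 and 0.24, and those of 40 days at -0.12, -0.14, -0.32 and -0.22, so that the dye difference was above 0 in all young samples and below 0 in all old ones. The difference between the ages was -0.42 (SE 0.14, limma adjusted p = 0.0088), in a test that called 67.9% of all transcripts. With each column centred on its median it turned to 0.16 (SE 0.14, limma adjusted p = 0.62), and that test called 0 transcripts. Averaged over the 8 probes, the ratio of the ages within arrays was nonetheless close to equal in the 2 dye orientations, though not at each probe, as given above.

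Of 34 other genes of antioxidant defence (peroxiredoxins, superoxide dismutases, catalase, thioredoxin and glutathione enzymes), 3 could be tied to transcript numbers, with 4 transcripts. Names were at hand only for genes that the study had called, so their direction is no independent evidence. None of the 4 transcripts passed limma's adjusted p under 0.01 in either direction, where 0.186% of all transcripts did. By limma 1 of the 4 had an unadjusted p under 0.05, as had 2934 of all 16637 transcripts. Below 0 lay 1 of the 4 and above it 3, of which 2 belong to the same gene, Gss2. The median log2 ratio of the 4 was 0.28, against 0.0069 over all transcripts.

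**Figure D5:**
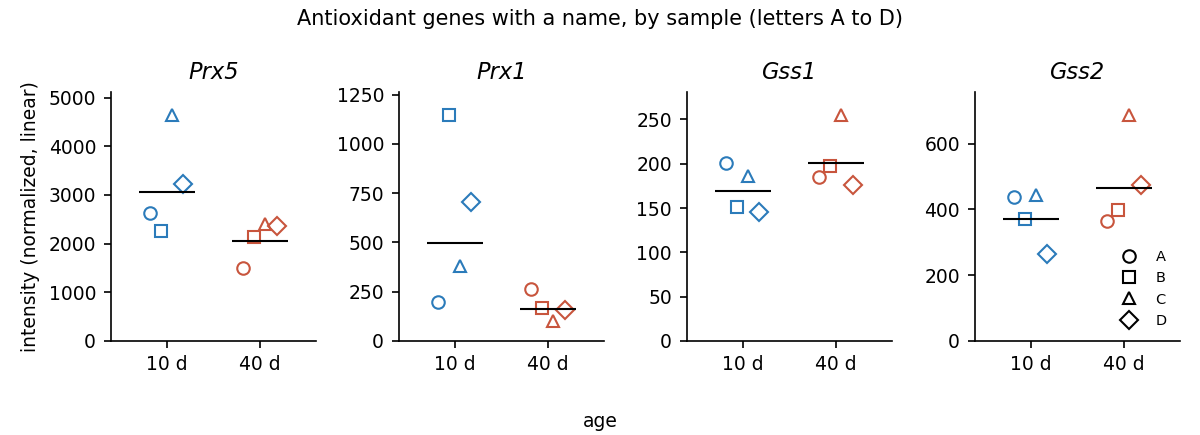
Intensity (value table, linear) of Prx5 and of the 3 other antioxidant genes with a name in the 4 samples of each age, with the mean of the log2 values as a line and letters as symbols. Gss2 is shown by 1 of its 2 transcripts. Samples of the ages overlap in all 4 genes.

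Prx1 (CG6888), another peroxiredoxin, had an SD of 1.1 on the log2 scale among 10-day samples, against 0.449 for Prx5. Its intensity was 198.2, 1148, 380.7 and 702.9 in samples A to D of 10 days and 262.8, 165.4, 101.9 and 157.4 in those of 40 days. The log2 ratio was -1.52 (SE 0.52, limma adjusted p = 0.25), with 3 of 4 old samples below the lowest young one. Each SE in this paragraph is limma's moderated one, whereas that given for the Prx5 ratio was the plain SE of 4 ratios. The moderated SE of Prx5 was 0.18. The young sample B was highest for Prx1 and lowest for Prx5. Gss1 and Gss2 encode glutathione synthetase, which completes the synthesis of glutathione. Gss1, identified by elimination from the symbol GS, lay between 146.1 and 201.3 at 10 days and between 176.2 and 255.5 at 40 days (log2 ratio 0.23, SE 0.099, limma adjusted p = 0.31). The 2 transcripts of Gss2 (CG32495) had log2 ratios of 0.32 (SE 0.18, limma adjusted p = 0.41) and 0.33 (SE 0.13, limma adjusted p = 0.3).

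Markers of the heart and of neighbouring cell types were looked up beside Prx5, and 8 of 54 had a transcript number, again only genes that the study had called. Of 11 markers listed for the heart tube only Act88F had one, and it was dim and not among the bright transcripts. It ran from 97.5 to 120.2 at 10 days and from 110 to 177.7 at 40 days. The tissue could thus not be checked against its defining factors. Among markers of other cells, the fat body store protein Lsp2 ran from 170 to 652 at 10 days and from 80.6 to 104.6 at 40 days, and the fat body lipoprotein apolpp from 124.5 to 386 and from 307 to 754. The testis transcript Mst84Dc ran from 2892 to 9538 at 10 days and from 412.4 to 2939 at 40 days. Of 3 haemocyte markers, Hml ran from 508 to 929 at 10 days and from 164 to 326 at 40 days, and Pxn from 81.5 to 99.7 and from 66.9 to 83.3. NimC4 rose from between 69.4 and 92.9 to between 267 and 468 (log2 ratio 2.06, limma adjusted p = 0.006). The study had called all 8 between the same ages in these data, so this p-value is no independent evidence. By limma here NimC4 was the only one of the 8 past 0.01, where 0.186% of all transcripts were called. This call was lost when any 1 letter was left out, as were all others. The nephrocyte receptor Cubn ran from 218 to 673 and from 214 to 465. The part of these cells in the Prx5 values was not tested.

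Transcripts whose level followed that of Prx5 most closely over the 8 samples were sought among 2044 other bright ones. The highest correlations were those of FBtr0072677 (r = 0.923) and FBtr0080772 (r = 0.882), neither of which was paired with a gene, and 1 transcript exceeded 0.9. Among the 301 bright transcripts with a name, all called by the study and picked after their values were seen, colt (r = 0.793), CG7920 (r = 0.789), CG12279 (r = 0.778), CG15209 (r = 0.776) and CG13091 (r = 0.771) came first. All 5 had log2 ratios of 40 over 10 days below 0, from -0.59 for CG12279 to -1.84 for CG13091, a direction that likeness over both ages to a gene chosen for its fall favours. With the age means removed, the named transcripts nearest to Prx5 were Arc-p20 (r = 0.738), a subunit of the complex that nucleates actin branches, and GstE3 (r = 0.724), a glutathione transferase. Their log2 ratios, 0.68 for Arc-p20 and 0.53 for GstE3, were above 0, as were those of the next 3, CG30423 (0.60), CG2852 (0.85) and Crc (0.61). Named transcripts are genes that the study had called between ages. The 5 nearest of all bright transcripts had no name, r from 0.893 to 0.911 and log2 ratios on both sides of 0, from -0.08 to 0.29. All these correlations are over 8 samples whose libraries the transcripts share.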

How the data were processed

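Gene expression was measured on 2-colour NimbleGen arrays. Per probe, the authors deposited raw intensity in each channel (read at 635 and 532 nm and extracted with NimbleScan 2.5.26) and, in a separate table, lowess-normalized intensity on a linear scale, called the value table here. The genome build of the array design is not given in the sources used here. The number of arrays limits the precision. Depending on the channel, 22.1% to 29.7% of gene probes exceeded the 95th percentile of 4100 random control probes, which entered no test.

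The raw intensities were background-corrected by normexp (offset 50) and normalized by loess within arrays in limma 3.58.1 (R 4.3.3, statmod 1.5.0 and version 1.17.8 of data.table). The 2 arrays of a letter were averaged, and probes were averaged per transcript. The 4 ratios were tested with lmFit and eBayes, with Benjamini-Hochberg adjustment over 16637 transcripts at 0.01. The test took the 4 ratios as independent, which under the value table they were not. Dye differences and differences among samples of 1 age were fitted on the log2 values of the authors' normalized intensities. Procedures were tested on simulated data. Python 3.11.15, numpy 2.4.6, pandas 2.3.3 and matplotlib 3.10.9 made tables and figures.

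Samples were grouped by the age in the labels. Named were Prx5, antioxidant genes past 0.01 or otherwise the 4 largest ratios and other peroxiredoxins, and the 5 transcripts most like Prx5 by each measure, of which those without a gene name are given only in part. The named transcripts most like Prx5 and the cell markers fall outside this rule. The members and lists were chosen with earlier results of these data known. Names were paired for 1168 transcripts through the study's gene lists. RpL32 and vri are not reported here for want of such a pairing, and Gs1 was left out of the antioxidant list because it encodes glutamine synthetase.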

Additional observations from a re-analysis of the deposited data

Results flagged for a closer look

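The dye difference of Prx5 differed between the ages. Cy5 over Cy3 was 0.22 at 10 days and -0.20 at 40 days, a difference of -0.42 on the log2 scale (SE 0.14, limma adjusted p = 0.0088), with all 4 young samples above 0 and all 4 old samples below it. The same test called 67.9% of all transcripts. The medians of the value-table columns were higher on the arrays that held the 10-day sample in Cy5 (89 to 99.95) than on those that held it in Cy3 (70.35 to 80.76), so dye by age and set of arrays cannot be told apart. After each column was centred on its median the Prx5 difference was 0.16 (SE 0.14, limma adjusted p = 0.62), and 0 transcripts were called. By Dixon's criterion no value stood apart from its group in the 60 groups examined, where chance would single out about 1 in 20. The groups held Prx5 levels by age, Prx5 ratios over arrays or letters, and levels of the other listed genes.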

How the results depend on the processing

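The log2 ratio of Prx5 stayed below 0 in all 11 alternatives, from -0.77 to -0.43. The median of its rank over channels stayed between 1.17% and 1.51% in 4 alternatives. By the letters of the value table, only sample C of 10 days was most like the 40-day sample of its own letter. The r of same-letter deviations was -0.105, -0.111, 0.651 and 0.132 for A to D. The count of transcripts called between ages, 31, became 4 with the value table by letter (replicate block) and 56 with no replicate block. It became 519 with 8 arrays as replicates, 16 with the median of probes, 52 with the filter on control probes and 255 at an adjusted p under 0.05. Leaving out any letter gave 0 to 0 calls, while limma's unadjusted p was under 0.05 for 1610 to 2937 transcripts. No antioxidant transcript was called in 10 alternatives. The dye difference changed sign with the median of probes (-0.012) and in 40-day samples alone (-0.20), and ran from -0.0073 to 0.046 when a letter was left out, below 0 without A (-0.0044) or B. The adjusted p among 10-day samples ran from 1.2e-05 to 0.042 when a sample was left out, 0.042 without C. Among 40-day samples it ran from 0.0009 to 0.64, 0.64 without A, and was 0.99 with the scanner labels. Of the 5 transcripts most like Prx5, 1 remained with the scanner labels and between 1 and 4 when a sample was left out. The causes were not tested. The number of samples and the names at hand limit what can be said.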
